A study of Mus musculus with 6 samples.

Results

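The genes described here encode proton pump subunits, membrane proteins and soluble enzymes of lysosomes, and 3 transcription factors of the Tfeb family. They were taken from the gene count table as protein-coding genes whose symbol begins with Atp6v0 or Atp6v1, which gave 23 genes, together with 26 genes named one by one. These 49 of the 54532 genes in the table comprised 14 genes of the V1 sector of the pump, 9 of its V0 sector, 6 membrane proteins, 10 hydrolases of glycans, 7 proteins that act on lipids or proteins, and 3 transcription factors. RNA-seq was performed on mouse primary T cells in 2 groups of 3 samples. According to the study's methods these were spleen-derived CD8T cells, which anti-CD3/CD28 beads activated before coculture with thioglycollate-elicited peritoneal macrophages that had been activated with IFN-γ. In the DB2313 group the cocultured cells had first been given DB2313, which inhibits the transcription factor Spi1 (PU.1), and in the control group they had not. The partner cells are macrophages in the paper but "DC cells" in the labels, which do not spell out the abbreviation. A protocol label shared by all samples names DB2313, so the groups rest on the labels of each sample, whose descriptions read CONT or DB2313T. The labels give no strain, age or sex, and do not say whether the 3 samples of a group were separate cultures, so p-values measure only the spread between these samples. The methods used here name no step that separated the T cells from the other cells after coculture.

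Lysosomes break down proteins, lipids and glycans in an acidic lumen. The vacuolar ATPase keeps the lumen acidic: its cytosolic V1 sector hydrolyses ATP, and its V0 sector carries protons through the membrane. Tfeb, Tfe3 and Mitf bind E-box sequences, CACGTG at the core, in the promoters of many lysosomal genes and induce them together. Macrophages hold many lysosomes for the digestion of what they engulf, whereas T cells hold fewer and use related granules to kill target cells.

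Between 16611975 and 18596217 reads were counted on genes in a library, and replicates agreed closely, at 4.67% biological coefficient of variation in common. Values are given as CPM, counts scaled to a common library size after TMM normalization, and levels of different genes are compared only as CPM per kb of gene length. Genes were called higher or lower at an adjusted p below 0.05 from edgeR's quasi-likelihood test over the 14883 genes that passed its filter on low counts. The labelled cell type was checked first. All 22 T cell markers were higher in the DB2313 group (median log2 fold change 0.61) and took 0.388% to 0.395% of the counts in the control libraries against 0.627% to 0.632%. Of 24 tested macrophage markers 20 were lower and 3 higher, with a median of -1.11, and the list took 1.24% to 1.26% of the control counts against 0.472% to 0.482%; among these markers Vsig4 was at 0 in all libraries. The 11 tested dendritic cell markers had a median of -0.62, with 0.426% to 0.431% against 0.307% to 0.310% of the counts and Siglech at 0. Of 10 neutrophil markers 7 were lower and 3 higher (median -1.62), with 0.180% to 0.182% against 0.0940% to 0.0969% of the counts. Of 8 B cell markers 6 were higher and none was lower (median 0.49), with 0.0298% to 0.0301% against 0.0453% to 0.0463%. Of 8 tested mast cell and basophil markers 4 were higher and 2 lower (median 0.12), with 0.116% to 0.117% against 0.103% to 0.105%. RNA of T cells and of myeloid cells was thus counted in the same libraries, and its balance differed between the groups. In such bulk RNA, fewer cells of a type and less RNA per cell cannot be told apart, and the part of these markers in the results on lysosomal genes was not tested.

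Promoter sequence is shown for a few genes because most of the genes moved in one direction. It was searched for the E-box, which only some of the genes hold and which their choice did not use. RefSeq promoter windows of GRCm38.p6, from 250 bases before to 50 bases after the start, were available for 41 of the 49 genes, the others being Atp6v1g1, Atp6v1b2, Atp6v1c1, Atp6v1h, Atp6v0d2, Atp6v0a2, Npc1 and Asah1. CACGTG, searched on both strands, was held by 10 of the 41 genes (24.4%), against 8.09% of 27025 genes with such windows. In all 10 the motif was preceded by T on one strand, and TCACGTG, which overlaps CACGTG, was held by 4.29% of all genes. The 10 genes were Atp6v0b, Atp6v0d1, Atp6v0e, Atp6v1a, Gaa, Gla, Glb1, Lamp1, Mcoln1 and Naglu. In Atp6v0e the motif lay after the start, and in Atp6v0d1 it lay across the start. AGGAAGT, a sequence of the kind that Spi1 binds, was held by 4 of the 41 genes (9.76%), namely Atp6v1a, Gla, Gusb and Tfe3, against 10.7% of all genes.
Stretches from base -100 to base -7 before the start are given 5′ to 3′ on the strand of the gene, with TCACGTG or its complement in capitals. They hold 4 copies of CACGTG in Lamp1, 2 in Atp6v0b, 1 in Glb1 and none in Man2b1, the glycan hydrolase with the largest fall. The stretches lie at chr8:13159061-13159154 (plus strand), chr4:117887336-117887429 (minus strand), chr9:114400978-114401071 (plus strand) and chr8:85083169-85083262 (plus strand).
Lamp1: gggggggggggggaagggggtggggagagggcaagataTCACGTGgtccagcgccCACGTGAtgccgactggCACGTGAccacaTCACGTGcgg
Atp6v0b: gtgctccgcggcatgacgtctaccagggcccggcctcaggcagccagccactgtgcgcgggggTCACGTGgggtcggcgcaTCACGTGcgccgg
Glb1: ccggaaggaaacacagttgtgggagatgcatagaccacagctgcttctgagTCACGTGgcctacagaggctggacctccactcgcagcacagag
Man2b1: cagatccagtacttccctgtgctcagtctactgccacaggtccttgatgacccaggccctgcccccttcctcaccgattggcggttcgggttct

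Lysosomal genes were mostly lower in the libraries of the DB2313 group, which hold RNA of T cells and of myeloid cells. Of the 49 genes, 42 passed the filter on low counts and were tested, of which 34 were lower, 2 were higher and 6 did not pass the threshold. Among all tested genes 45.4% passed it, 24.6% lower and 20.8% higher. The median log2 fold change of the 42 genes was -0.33, beside 0.02 over all tested genes, and ranged from -1.19 in Atp6v0d2 to 0.27 in Arsb. Most of the changes were small in size: only Atp6v0d2 and Psap passed a log2 fold change of -1, where 5.3% of all tested genes lay, and no gene passed 1, where 1.37% lay. Psap did not pass -1 with scaling to library size (-0.92) or the upper quartile (-0.95), or without DB2313 replicate 3 (-0.99). In 33 of the 42 genes every DB2313 library lay below every control library, and in 3 every one lay above, against 27.5% and 25.6% of all tested genes, or 53.1% without overlap in either direction. The libraries are shown for each gene in the plot of CPM over the control mean.

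**Figure D1:**
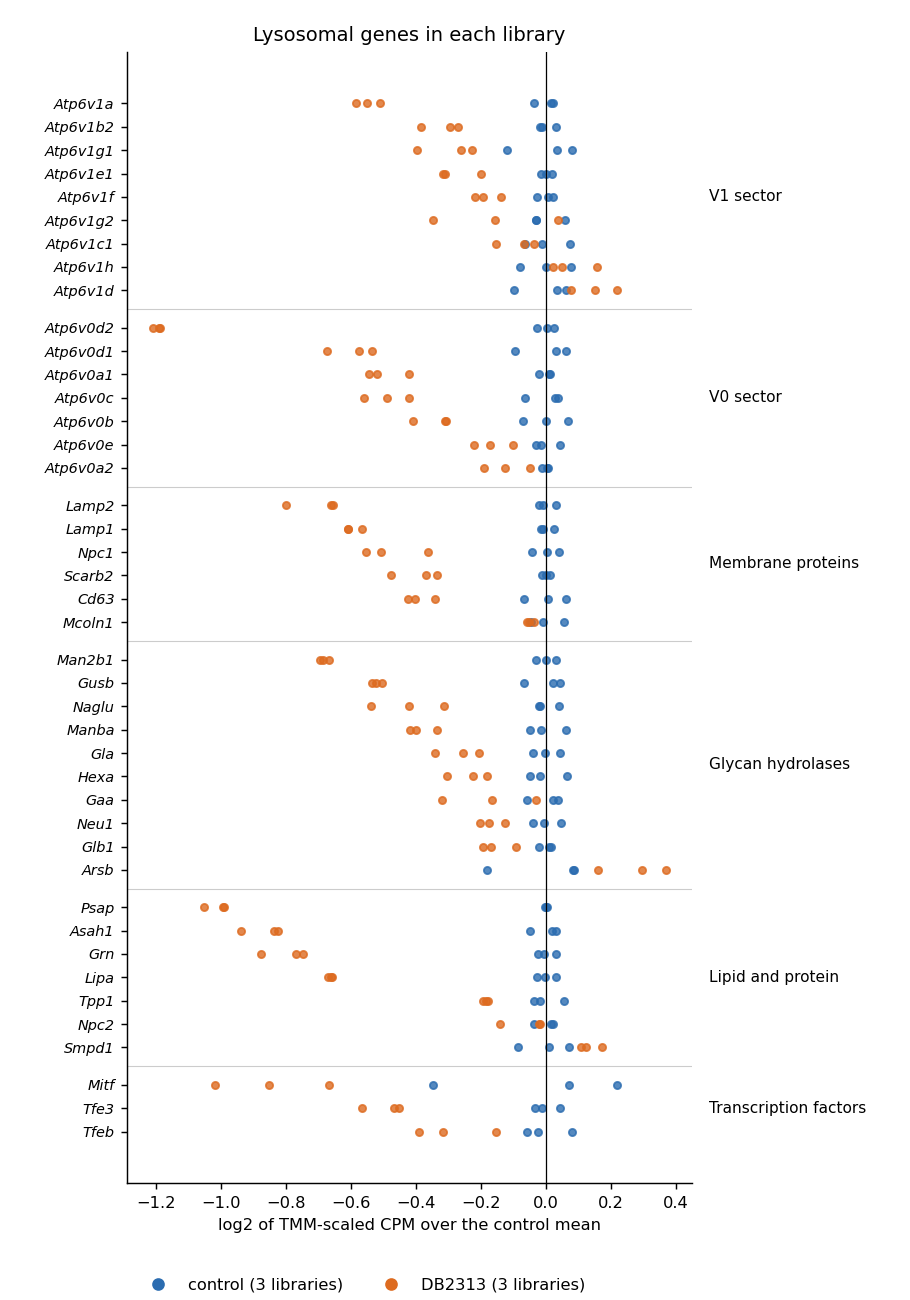
Each of the 42 tested lysosomal genes in each library, as the log2 of its TMM-scaled CPM over the mean of the 3 control libraries (x axis), by role and ordered by fold change. Blue points are control and orange points DB2313 libraries; the orange points lie left of all blue points in 33 genes and right of them in 3.

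The scaling of the libraries set how many genes were called. With scaling to library size, which moved the median of all tested genes to 0.11, 27 lysosomal genes were lower and 4 higher, and with the upper quartile 31 and 4. Among all tested genes the same settings gave 2852 lower and 4931 higher genes, and 3102 and 4319, in place of 3667 and 3096 with TMM. When the libraries were scaled to the summed counts of the 22 T cell markers, all 42 lysosomal genes were lower, with a median of -0.92. On that scale most genes were lower: 11526 of the 14883 tested genes were lower and 166 higher, with a median of -0.57. The 4 genes above 0 with TMM were then at -0.32 (Arsb), -0.44 (Atp6v1d), -0.46 (Smpd1) and -0.51 (Atp6v1h), so both higher calls turned. Even the highest lysosomal gene lay below the lowest T cell marker (0.32) on the TMM scale, and 1 of the 42 lay at or below the median of the macrophage markers.

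**Figure D2:**
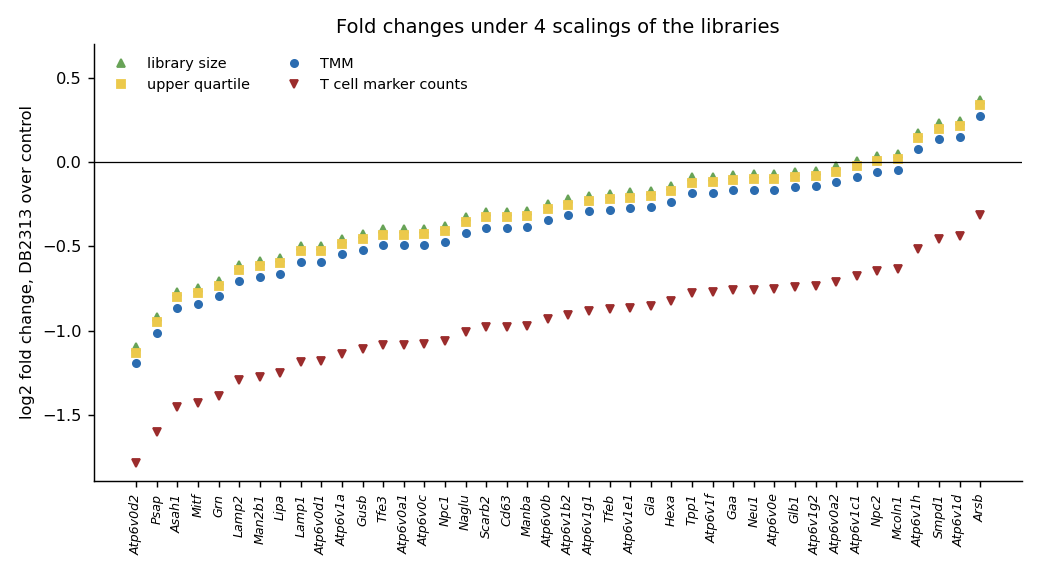
Log2 fold change of each of the 42 tested lysosomal genes (y axis) with the libraries scaled by TMM, to library size, to the upper quartile or to the summed T cell marker counts. The scale moves all genes together: the median is -0.33 with TMM, -0.23 with library size, -0.27 with the upper quartile and -0.92 with the T cell markers.

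The lysosomal genes together took 1.48% ± 0.00305 of the control counts and 1.01% ± 0.0152 of the counts with DB2313 (SD, n = 3 each). Psap alone took 0.698% ± 0.00388 and 0.370% ± 0.00704 of the counts (SD, n = 3 each). Without Psap the share of the other genes was 0.781% ± 0.00521 and 0.637% ± 0.00826 (SD, n = 3 each), so Psap lost the most counts and the other genes together also lost some. Psap made up 46.9% to 47.5% of the lysosomal counts of the control libraries and 36.6% to 36.9% of those with DB2313. Relative to other counts of the same library, which needs no scaling, there were 3.78 ± 0.0377 lysosomal counts for each T cell marker count in the control group and 1.60 ± 0.0310 with DB2313 (SD, n = 3 each). For each macrophage marker count there were 1.19 ± 0.0138 and 2.10 ± 0.00848 (SD, n = 3 each). The groups did not overlap in either ratio (two-sided exact permutation p = 0.1, which 3 against 3 samples cannot go below). Both ratios were chosen after the values were seen and restate the shares of counts given above, so the test adds no independent result. Lysosomal transcripts thus fell relative to the T cell markers and rose relative to the macrophage markers.

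**Figure D3:**
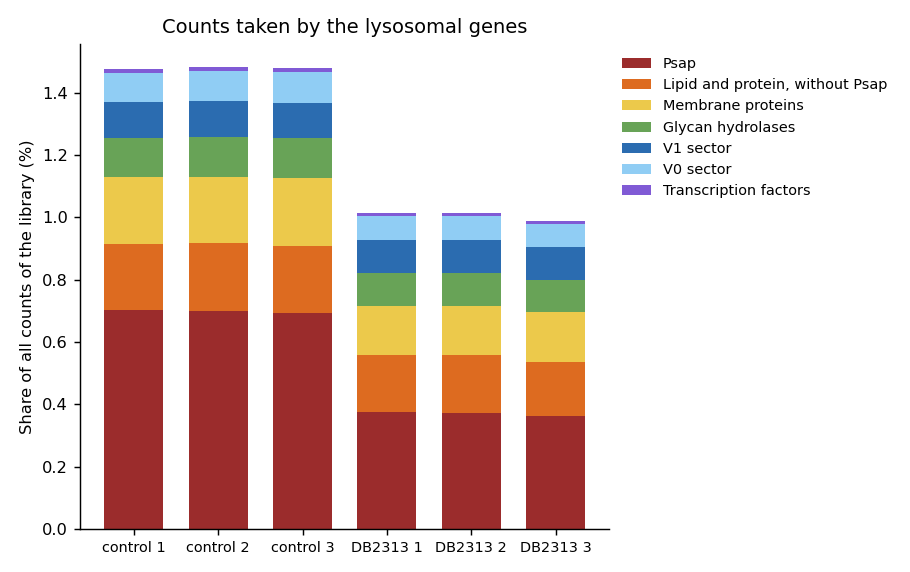
Share of all counts of each library (y axis, in percent) taken by Psap and by each group of lysosomal genes, stacked, for the 3 control and the 3 DB2313 libraries. The columns reach 1.48% in each control library and 0.989% to 1.02% with DB2313, and the Psap segment shrinks most.

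Among the proteins that act on lipids or proteins, 5 of 7 were lower, none was higher, and the median log2 fold change of -0.66 was the lowest of the 6 groups. Psap encodes prosaposin, the precursor of the saposins that present sphingolipids to lysosomal hydrolases. It lies on chromosome 10 of GRCm38 (plus strand, from 60277627 to 60302597) and had the highest level per length of all genes described here, 2633 CPM per kb in the control group. Psap was at 7226, 7245 and 7203 CPM in the control libraries and at 3634, 3631 and 3486 CPM with DB2313. Every control library was far above every DB2313 library, a log2 fold change of -1.01 (standard error 0.03, edgeR adjusted p = 3.55e-19). Asah1, the acid ceramidase, was at 163, 171 and 173 CPM in the control libraries and at 95.5, 94.7 and 88.3 CPM with DB2313. Its log2 fold change was -0.86 (standard error 0.04, edgeR adjusted p = 2.31e-14), and the groups were again well apart. Grn, which encodes progranulin, was at -0.80, and Lipa, the acid lipase that releases cholesterol from its esters, at -0.66. Tpp1, a tripeptidase, had a log2 fold change of -0.19, and its call was lost with scaling to library size (-0.09, edgeR adjusted p = 0.0552). The remaining pair did not pass the threshold: Npc2, which hands cholesterol to Npc1, was at 1046 ± 22.7 and 1003 ± 48.4 CPM (SD, n = 3 each), and Smpd1, the acid sphingomyelinase, had a log2 fold change of 0.13 (edgeR adjusted p = 0.116). With scaling to library size or to the upper quartile Npc2 was above 0, and Smpd1 was called higher. Within one pathway of lipid breakdown the log2 fold changes thus ran from -1.01 in Psap to 0.13 in Smpd1.

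Among the membrane proteins, 5 of 6 were lower and none was higher, with a median log2 fold change of -0.43. Lamp1 and Lamp2 are the heavily glycosylated proteins that line the lysosomal membrane. Lamp1 (chromosome 8, plus strand, from 13159161 to 13175338) was at 1091, 1094 and 1120 CPM in the control libraries and at 722, 722 and 745 CPM with DB2313. Lamp2 was at 323, 321 and 332 CPM and at 187, 206 and 207 CPM. Both groups of libraries were tight and did not overlap in either gene, with log2 fold changes of -0.59 in Lamp1 (standard error 0.03, edgeR adjusted p = 7.55e-14) and -0.70 in Lamp2 (standard error 0.04, edgeR adjusted p = 3.47e-13). Npc1, the cholesterol transporter of the membrane, was at -0.47, Scarb2, the receptor that carries glucocerebrosidase to lysosomes, at -0.39, and Cd63, a tetraspanin, at -0.39. Mcoln1, the calcium channel of the lysosome, was the exception at 64.0 ± 2.25 and 61.9 ± 0.487 CPM (SD, n = 3 each), and its sign changed with scaling to library size or to the upper quartile. Its promoter window holds the E-box as that of Lamp1 does.

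Of the 10 glycan hydrolases 9 were lower and 1 was higher, with a median log2 fold change of -0.25. The largest falls were in Man2b1, an alpha-mannosidase, and Gusb, the beta-glucuronidase. Man2b1 was at 379, 370 and 362 CPM in the control libraries and at 233, 230 and 229 CPM with DB2313, a log2 fold change of -0.68 (standard error 0.03, edgeR adjusted p = 3.66e-14). Gusb was at 179, 193 and 190 CPM and at 132, 129 and 131 CPM, a log2 fold change of -0.52 (standard error 0.04, edgeR adjusted p = 6.81e-11). In both genes the DB2313 libraries lay closer together than the control libraries and all below them. Naglu, which removes N-acetylglucosamine from heparan sulfate, was at -0.42 and Manba, the beta-mannosidase, at -0.38. Hexa, the alpha chain of beta-hexosaminidase, had the highest level per length of the group, 169 CPM per kb in the control group, and changed less: it was at 325, 332 and 352 CPM in the control libraries and at 297, 288 and 272 CPM with DB2313, a log2 fold change of -0.24. Gla was at -0.27, and Neu1, the sialidase, at -0.17, a call lost with scaling to library size (-0.07, edgeR adjusted p = 0.159). Gaa, which degrades glycogen, and Glb1, the beta-galactosidase, were at -0.17 and -0.15, and both calls were lost with scaling to library size (-0.07 and -0.06, edgeR adjusted p = 0.333 and 0.403) or to the upper quartile (-0.10 and -0.09, edgeR adjusted p = 0.175 and 0.189), with DESeq2 (adjusted p = 0.0824 and 0.0775) and in 4 of the 6 fits without a single library. For Gaa these were the fits without control replicate 1 or 3 or without DB2313 replicate 1 or 3 (log2 fold change of -0.16, -0.15, -0.17 and -0.10), and for Glb1 those without control replicate 1 or 3 or without DB2313 replicate 1 or 2 (-0.15, -0.14, -0.13 and -0.14).
Arsb, a sulfatase of dermatan sulfate, was the single hydrolase called higher with TMM (lower with scaling to the T cell markers), at 13.5, 13.5 and 11.2 CPM in the control libraries and at 14.2, 16.5 and 15.7 CPM with DB2313. The groups came close to each other, and the log2 fold change of 0.27 (standard error 0.11, edgeR adjusted p = 0.0412) lost its call with DESeq2 (adjusted p = 0.123), with a replicate block (adjusted p = 0.0501), and without control replicate 3, DB2313 replicate 2 or DB2313 replicate 3, where it was 0.19, 0.23 and 0.27.

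The proton pump genes taken by symbol changed unevenly between the sectors. Tcirg1, which encodes a form of subunit a of V0, has another kind of symbol and was counted with the pump accessory genes. Of the 7 tested V0 genes all were lower with TMM, though the calls of Atp6v0e and Atp6v0a2 were lost with scaling to library size, with a median log2 fold change of -0.49. Of the 9 tested V1 genes 5 were lower, 1 was higher and 3 did not pass, with a median of -0.18. A ratio within each library, chosen after the values were seen, set the summed counts of the 9 V0 genes against those of the 14 V1 genes. It was 0.831 ± 0.0247 in the control group and 0.731 ± 0.0102 with DB2313 (SD, n = 3 each). The groups did not overlap (two-sided exact permutation p = 0.1, the lowest possible). As levels per length in the control group, V1 genes ran from 2.44 CPM per kb in Atp6v1g2 to 129 in Atp6v1g1, and V0 genes from 13.6 in Atp6v0a2 to 102 in Atp6v0d1. The subunits of one complex were thus not counted at equal levels, as the plot of CPM per kb shows.

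**Figure D4:**
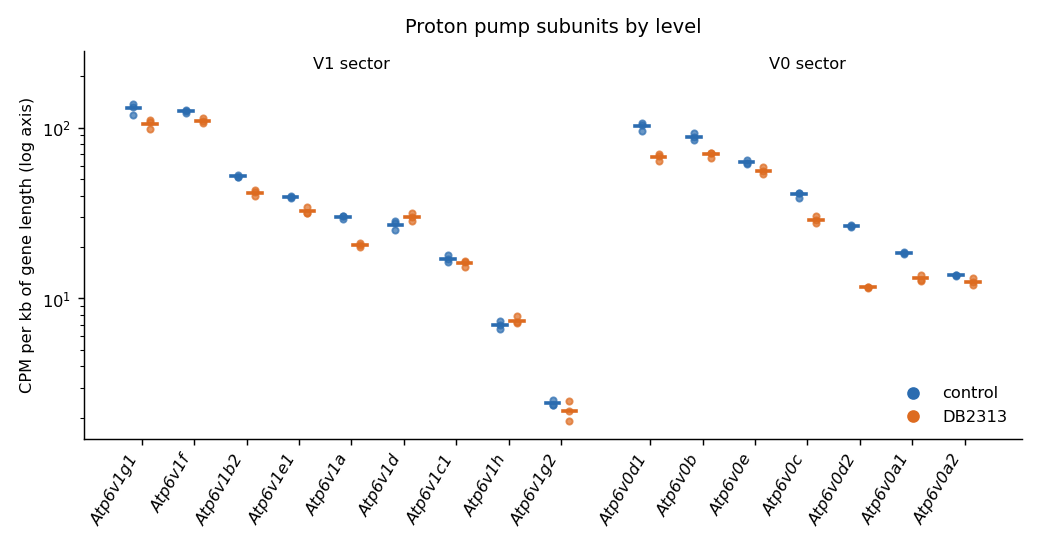
CPM per kb of gene length (y axis, log scale) of the 16 tested pump genes taken by symbol, in each library. Bars are group means (n = 3 each), and genes are ordered by sector and control level. The DB2313 libraries lie below the control libraries in all 7 V0 genes and in 5 of 9 V1 genes, and, on the TMM scale but not when scaled to the T cell markers, above them in Atp6v1d; the widest gap is in Atp6v0d2.

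In the V0 sector the largest fall was in Atp6v0d2, the form of subunit d known from osteoclasts and from some macrophages (chromosome 4, minus strand, from 19876841 to 19922605). Atp6v0d2 was at 71.0, 72.5 and 73.6 CPM in the control libraries and at 31.7, 31.8 and 31.3 CPM with DB2313. Its log2 fold change of -1.19 (standard error 0.06, edgeR adjusted p = 2.54e-14) was the lowest of all genes described here, and lay between -1.21 and -1.10 in the other fits, except at -1.78 with scaling to the T cell markers. Atp6v0d1, the widespread form of the same subunit, was at 171, 186 and 190 CPM and at 123, 126 and 114 CPM, a log2 fold change of -0.59 (standard error 0.04, edgeR adjusted p = 1.03e-10). Both forms fell, and d2 fell further: per length there were 0.262 ± 0.0108 Atp6v0d2 counts for each Atp6v0d1 count in the control group and 0.173 ± 0.00723 with DB2313 (SD, n = 3 each), with no overlap (two-sided exact permutation p = 0.1, the lowest possible). Of the 7 tested markers of osteoclasts and multinucleated giant cells, Dcstamp, Ocstamp and Mmp9 were lower (log2 fold changes of -1.48, -2.48 and -3.08), Itgb3 and Acp5 were higher (0.43 and 0.20), and the list took 0.0309% to 0.0319% of the control counts and 0.0339% to 0.0357% of those with DB2313. Their part in the fall of Atp6v0d2 was not tested.
Subunit a anchors the pump and holds the path of the protons. Its form Tcirg1 was counted with the pump accessory genes and is not compared here. Atp6v0a1 was at 119, 122 and 122 CPM in the control libraries and at 84.5, 90.3 and 82.9 CPM with DB2313, a log2 fold change of -0.49 (standard error 0.04, edgeR adjusted p = 1.22e-09). Atp6v0a2 was at 92.3, 91.1 and 92.1 CPM and at 84.1, 80.4 and 88.8 CPM, a log2 fold change of -0.12 (standard error 0.05, edgeR adjusted p = 0.0353). The Atp6v0a2 call was lost under DESeq2 (adjusted p = 0.11), scaling to library size or the upper quartile, no filter, a replicate block (adjusted p = 0.0528) and in 5 of the 6 fits without 1 library, all but that without DB2313 replicate 3. In those 5 fits its log2 fold change lay between -0.13 and -0.09. The Atp6v0a2 to Atp6v0a1 ratio per length was 0.740 ± 0.0140 in the control group and 0.960 ± 0.0880 with DB2313 (SD, n = 3 each), without overlap (two-sided exact permutation p = 0.1, the lowest possible). Among the proteolipid and small subunits, Atp6v0c was at -0.49, Atp6v0b at -0.34 and Atp6v0e at -0.16. The Atp6v0e call was lost with scaling to library size (-0.07, edgeR adjusted p = 0.133). Atp6v0e2 had 1 to 6 counts in a library, and Atp6v0a4, the form of the kidney, had no count in any of the 6.

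In the V1 sector the largest falls were in the subunits of the catalytic ring. Atp6v1a, the subunit that hydrolyses ATP, was at 185, 184 and 177 CPM in the control libraries and at 121, 124 and 128 CPM with DB2313, a log2 fold change of -0.55 (standard error 0.04, edgeR adjusted p = 1.83e-11). Atp6v1b2, its partner in the ring, was at 271, 281 and 273 CPM and at 211, 228 and 224 CPM, a log2 fold change of -0.32. The 2 genes fell by unequal amounts although their proteins sit side by side in the ring. Atp6v1g1, Atp6v1e1 and Atp6v1f, of the stalks, were at -0.29, -0.28 and -0.18, and the Atp6v1f call was lost with scaling to library size (-0.09, edgeR adjusted p = 0.0617). Atp6v1g1 was at 135, 155 and 150 CPM in the control libraries and at 123, 125 and 112 CPM with DB2313, while Atp6v1g2, a form known from neurons, was at 6.37, 5.99 and 5.99 CPM and at 6.28, 4.81 and 5.49 CPM. Their ratio per length was 0.0189 ± 0.00210 and 0.0209 ± 0.00314 (SD, n = 3 each), a difference within the spread of the libraries (two-sided exact permutation test, p = 0.4). Part of the few Atp6v1g2 counts could be reads of Nfkbil1, whose exons share 144 bases with it on the opposite strand.
Atp6v1d, of the central stalk that turns in catalysis, was at 127, 116 and 130 CPM in the control libraries and at 138, 145 and 131 CPM with DB2313. Its log2 fold change of 0.15 (standard error 0.05, edgeR adjusted p = 0.00965) turned with scaling to the T cell markers (-0.44) and lost its call without control replicate 2 (0.10) or DB2313 replicate 2 (0.12), and the lowest DB2313 library lay just above the highest control library. Atp6v1h, a regulator of the ring, was at 68.6 ± 3.72 and 72.4 ± 3.61 CPM and Atp6v1c1, which joins the sectors, at 95.8 ± 4.62 and 90.2 ± 3.74 CPM (SD, n = 3 each), and neither passed the threshold with TMM. Scaling to library size or to the upper quartile called Atp6v1h higher (0.17 and 0.14), and Atp6v1c1 was at 0.01 with scaling to library size. The tissue-restricted forms Atp6v1b1, Atp6v1c2, Atp6v1e2 and Atp6v1g3 and the neighbour gene Atp6v1fnb had at most 3 counts in a library and were not tested.

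The 3 listed transcription factors of the Tfeb family were lower, although their levels per length were low. Control levels lay between 3.11 CPM per kb in Mitf and 8.64 in Tfe3. Tfec, of the same family, was counted with the genes of nutrient sensing and Tfeb regulation. Tfe3 was at 82.5, 78.2 and 79.4 CPM in the control libraries and at 54.0, 58.5 and 57.9 CPM with DB2313, a log2 fold change of -0.49 (standard error 0.05, edgeR adjusted p = 2.99e-08). Tfeb was at 34.4, 33.6 and 37.0 CPM and at 31.5, 28.1 and 26.7 CPM, a log2 fold change of -0.28 (standard error 0.08, edgeR adjusted p = 0.00366). Mitf was at 20.2, 22.4 and 15.1 CPM and at 12.1, 10.7 and 9.51 CPM, a log2 fold change of -0.84 (standard error 0.13, edgeR adjusted p = 8.07e-06). In each of the 3 genes every DB2313 library lay below every control library, with the control libraries of Mitf spread widest. Among the tested genes with a promoter window, the 10 whose window holds CACGTG had a median log2 fold change of -0.30, with 9 of them lower, and the other 24 had a median of -0.39, with 19 lower. The median was not lower in genes with the E-box in this window, but whether the E-box had a part in these changes was not tested. The 4 with AGGAAGT were all lower, with a median of -0.51, and of the other 30, with a median of -0.31, 24 were lower. In Gusb and Tfe3 the sequence lay after the start. Whether AGGAAGT had a part in these changes was not tested.

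Other genes of the pathway were followed in 6 lists of 173 genes, of which 168 were tested, 100 were lower and 14 were higher, with a median log2 fold change of -0.23. These were 59.5% lower and 8.33% higher, beside 24.6% and 20.8% of all tested genes. Of 44 tested other hydrolases 33 were lower and 2 higher (Acp5, the tartrate-resistant phosphatase, at 0.20 and Tpp2, a peptidase of the cytosol, at 0.14). The largest falls of that list were in Rnaset2a (-3.47), a ribonuclease with a near-identical copy that makes the division of its reads uncertain, and Plbd1 (-2.28), a phospholipase B-like protein. Of 35 other membrane proteins 20 were lower, led by the peptide transporter Slc15a3 (257 CPM in the control group and 129 CPM with DB2313) and the nucleoside transporter Slc29a3 (-0.70), and Abcb9 (0.47) and Abca2 (0.16), both of the ABC transporter family, were higher. Of 14 pump accessory genes 8 were lower, led by Dmxl2 (-1.10) and Wdr7 (-0.71), partners of a complex that assembles the pump, and Oxr1 (0.17) was higher. Of 19 sorting genes 12 were lower, led by the sorting receptor Sort1 (-1.06) and Cln8 (-0.61), and Gnptg (0.45), part of the enzyme that makes the mannose 6-phosphate tag, was higher.
Of 22 genes of nutrient sensing and Tfeb regulation 12 were lower and 3 higher, with the largest falls in Fnip2 (-0.74) and Rptor (-0.47) and the largest rises in the GTPases Rragb (0.52) and Rraga (0.23). Of 34 autophagy genes 15 were lower and 5 higher, led by Rab7 (-0.70), the GTPase of late endosomes, and Atg7 (-0.63) on one side and by Vps16 (0.32) and Atg101 (0.28) on the other. The median log2 fold change was -0.40 for the other hydrolases, -0.24 for the accessory genes, -0.21 for sorting, -0.20 for the other membrane proteins, -0.17 for nutrient sensing and -0.08 for autophagy. Each list had more lower than higher genes, as all tested genes also did, and the hydrolases lay furthest down. The lists share genes with the macrophage markers: Lyz2 is also among the other hydrolases and Cd68 among the other membrane proteins.

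**Figure D5:**
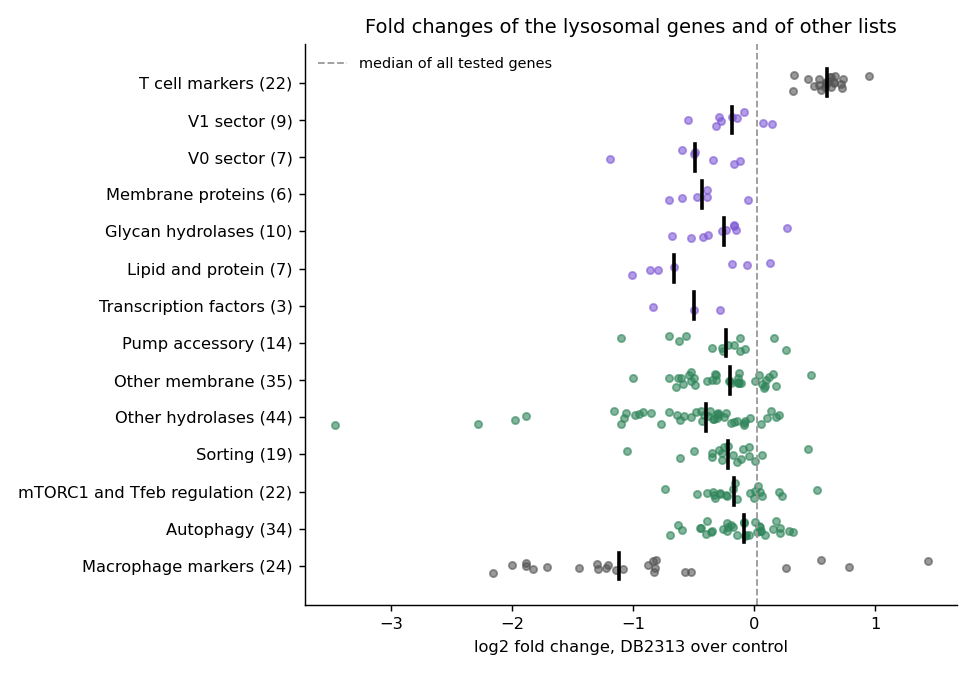
Log2 fold changes of DB2313 over control (x axis) of single tested genes, by list with the number of genes in brackets: lysosomal genes by role (purple), other genes of the pathway (green) and markers of T cells and macrophages (grey). Black bars are medians and the dashed line is the median of all tested genes, 0.02; the medians of the lysosomal groups lie between the T cell markers (0.61) and the macrophage markers (-1.11).

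Exons of some genes overlap those of others, and the sources used here do not say whether counting used the strand of the reads. The overlap was 249 bases for Lamp1 with Grtp1, 255 bases for Hexa with Tmem202, 511 bases for Npc1 with Rmc1 and 68 bases for Grn with Fam171a2, all on opposite strands, and 165 bases for Glb1 with Tmppe on the same strand. Reads of Atp6v0c may be shared with its processed pseudogenes.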

How the data were processed

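Primary T cells of mouse were analysed in 2 groups of 3 samples by RNA-seq. The authors deposited raw counts per gene without normalization. The paper names LifeScope for alignment and counting, whereas the submitters' processing notes list CASAVA 1.8, HISAT2 2.0.5 and featureCounts 1.5.0-p3. Genome build, annotation and strandedness are not given in the sources used here. Of the 49 genes, 46 have the GRCm38 coordinates of GENCODE mouse release M21. Library totals were 16611975 to 18596217 counts, and where no read was counted the upper limit was 3 counts (1.81e-05% of the smallest library, counting error only). In R 4.3.3, the test was edgeR 4.0.16 with filterByExpr, TMM, glmQLFit and glmQLFTest over all genes with Benjamini-Hochberg adjustment, where the paper used DESeq2. Standard errors came from the fitted change and its test. Simulated counts served to test the scripts. Alternatives were DESeq2 1.42.0, other scalings and filters, a replicate block and leaving out each library. Same-numbered samples did not deviate together (correlations from -0.0228 to -0.00332). Members and lists were chosen with earlier results of these data known. By rule, libraries are given for called genes past a log2 fold change of 1, the 2 largest called rises and falls in each role, the pump forms compared, the transcription factors and the gene highest per length in each role, and in each pathway list the 2 largest called rises and falls are named. Ratios of summed counts within a library were added after the data were seen. Giant cell markers were named after their values were seen.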

Additional observations from a re-analysis of the deposited data

How the results depend on the processing

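Over 13 alternatives, which leave out scaling to the T cell markers, 502 of 546 comparisons of the 42 tested genes gave the same direction and call, 35 lost the call, 4 gained one and 5 changed sign. Of the 34 lower genes 27 kept their call in all 13, and of the 2 higher genes neither did. The number of lower genes was 27 when scaled to library size, 31 for the upper quartile and for DESeq2, 42 with scaling to the T cell markers and 31 to 33 when a library was left out. The number of higher genes was 1 with DESeq2, 4 with library size and upper quartile scaling, 0 with scaling to the T cell markers and 0 to 2 in the fits that left out a library, the lowest without DB2313 replicate 2. With a replicate block it was 1, and 33 genes were lower. The shared replicate numbers were not taken to pair the samples, though the low correlations cannot settle how the samples were prepared. The block changed no other count by over 1.5 times. A log2 fold change past 1 as well left 2 lower and 0 higher genes, and 10 and 0 of the other genes of the pathway, since it tightens the threshold. Those other genes gave 25 higher with library size scaling, and 160 lower and 0 higher with scaling to the T cell markers. Among all tested genes, scaling to the T cell markers gave 11526 lower and 166 higher. The median log2 fold change of the 42 genes was -0.23 when scaled to library size, -0.27 for the upper quartile, -0.92 with the T cell markers and -0.36 to -0.31 with a library left out. Signs changed with library size scaling for Npc2 (0.035), Atp6v1c1 (0.0074) and Mcoln1 (0.046), and with the upper quartile for Npc2 (0.0041) and Mcoln1 (0.016), all near no change. Scaling to the T cell markers changed 4 more signs, those of Arsb (-0.32), Atp6v1d (-0.44), Smpd1 (-0.46) and Atp6v1h (-0.51), and so turned both higher calls. The shifts under scaling come from the scaling itself; other causes were not tested.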
